A study of Drosophila melanogaster with 9 samples.

Results

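The 8 genes described here mark blood cells (hemocytes) of the Drosophila melanogaster embryo, namely Pxn, Ppn, Glt, Hml, crq, drpr, Pvr and lz. They were found on the Affymetrix Drosophila Genome 2.0 array as the probe sets whose platform annotation gives a single gene symbol, current or older, among these names. This gave 9 probe sets out of 18769, 2 of them for Pxn and 1 for each other gene. Embryonic hemocytes arise in the head mesoderm under the GATA factor Serpent and migrate through the whole embryo. Most become plasmatocytes, macrophages that engulf dying cells and lay down basement membrane, and a small group becomes crystal cells, which supply the enzymes of melanisation. Their migration depends on the receptor Pvr, and their spread over the embryo takes place during the stages in which the germ band retracts and the epidermis closes dorsally.

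RNA came from whole dechorionated embryos at stages 10 to 13, with 3 arrays in each of 3 groups. The mutant group was homozygous for the cabut (cbt) allele cbtEP(2)2237E1 and was picked by embryo sorter for lack of the GFP that marks the balancer (twi-eGFP) of the stock. The control was white 1118, here w1118. The third group, labelled Cbt>69B, carried UAS-Cbt under the epidermal driver 69B-Gal4, so the transgene was not aimed at hemocytes, and no array with the driver alone was analysed here. A mutant or Cbt>69B sample held about 1000 embryos, so every array averages over many embryos and all their tissues. In such samples fewer hemocytes and less RNA per hemocyte cannot be told apart. The labels do not say whether the RNA samples of a group are separate collections, and if they are not, the p-values cover technical spread only.

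Levels are the deposited log2 values, and the highest Tag control probe set of an array, which has no fly target, was taken as its background (0.58 to 1.20). Between 43.8% and 62.0% of probe sets lay above it on an array. The targeted gene cbt stood at 6.73 ± 1.02 (SD, n = 3) in w1118, 4.26 ± 0.42 in the mutant and 3.36 ± 0.33 in Cbt>69B. For cbt the Cbt>69B minus w1118 difference was -3.37 and passed the threshold used below (limma adjusted p = 0.0436). The mutant minus w1118 difference of -2.46 did not pass (limma adjusted p = 0.190). The low level in Cbt>69B goes against a label that names an excess of Cbt. It is not known here, however, whether the probes lie within the transgene or the altered part of the allele. Cbt>69B below therefore means the arrays labelled so. The w1118 arrays did not form 1 cluster either. Across probe sets, w1118 replicates 1 and 3 correlated at r = 0.987, whereas replicate 2 correlated with them at 0.890 and 0.894 and with the Cbt>69B arrays at 0.968 to 0.981. The 24 poly-A spike-in probe sets averaged 1.91 and 2.33 on replicates 1 and 3, against 3.14 to 3.92 on the other 7 arrays. Replicate 2 also correlated with the mutant arrays at 0.957 to 0.970, so the likeness was not particular to Cbt>69B. For cbt it read 6.05, beside 6.22 and 7.90 on replicates 1 and 3. On this gene the mutant arrays read 3.85 to 4.70 and the Cbt>69B arrays 3.16 to 3.74. Whether the label of replicate 2 is right was not tested. The comparisons of the members with w1118 are for this reason also given against replicates 1 and 3 and against replicate 2.

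The label was checked on the members themselves. Pxn (its probe set 1640097_at), Ppn, crq, drpr and Pvr lay above background on all 9 arrays. Glt did so on 6 arrays and Hml, the gene of the clotting protein hemolectin and a common plasmatocyte marker, on 5. The crystal cell gene lz and the second Pxn probe set (1629847_at) lay below background on all 9 arrays, so nothing measured on them is a level of the transcript. The arrays thus detected the matrix and engulfment genes of plasmatocytes, and did not detect the crystal cell factor lz. Other crystal cell genes, which are not members, were detected. PPO1 read 4.1 to 5.5 and PPO2 5.2 to 6.2, above background on all 9 arrays. Of the members, drpr is also known from glia, Pvr from the epidermis and Ppn from other matrix-producing tissues, so their levels are not those of hemocytes alone.

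**Figure D1:**
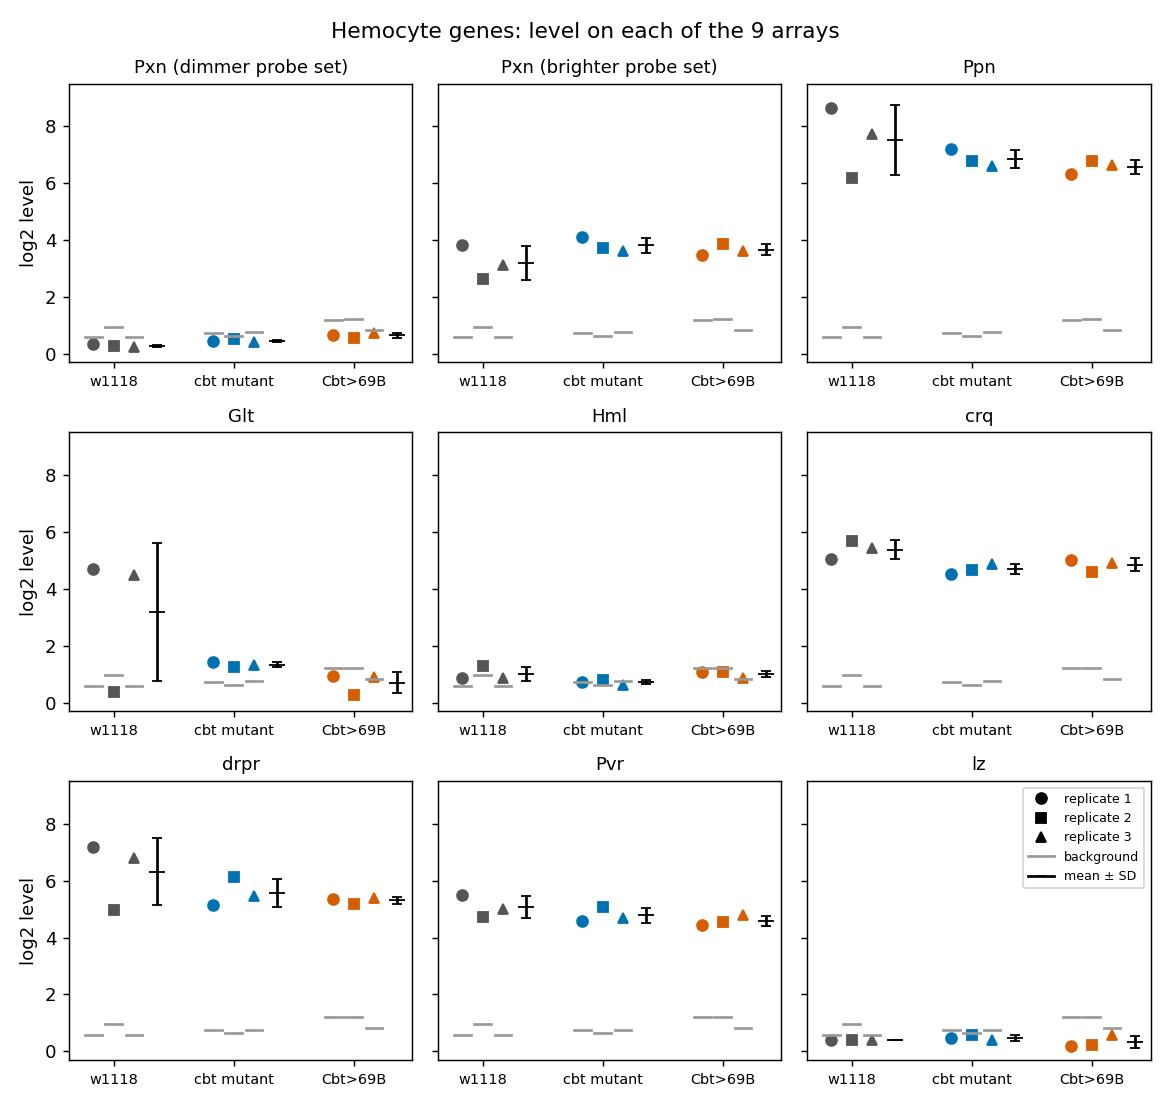
Log2 level (y axis) of the 9 probe sets on each array by group (x axis), with the symbol giving the replicate, a grey line the background of that array, and the bar the mean ± SD of 3 arrays. Glt is high on w1118 replicates 1 and 3 alone, Ppn and drpr show a smaller gap between the same arrays and w1118 replicate 2, and lz lies below background throughout.

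None of the 9 probe sets passed the threshold in any of the 3 comparisons (limma, adjusted p over all 18769 probe sets under 0.05). Over all probe sets 0.133% were called between mutant and w1118, 0.373% between Cbt>69B and w1118 and 0.256% between Cbt>69B and mutant, so a count of 0 among 9 is near the background. At an unadjusted p under 0.05 there was 1 member probe set in the first comparison, 3 in the second and 0 in the third, beside 9.0%, 31.9% and 18.9% of all probe sets, so these counts too are near the background. Between mutant and w1118 the median difference over the 9 was -0.29, against 0.01 over all probe sets. For Cbt>69B minus w1118 these medians were -0.48 and 0.09, and for Cbt>69B minus mutant -0.15 and 0.08. In each comparison 6 of the 9 differences were negative. The count includes 2 undetected probe sets, that of lz, negative in both Cbt>69B comparisons, and the second of Pxn, positive throughout. The share of negative differences over all probe sets was not counted, so no direction is read from it. The first and second comparison share the w1118 arrays.

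Among the matrix genes, Pxn encodes peroxidasin, a peroxidase that cross-links collagen IV in basement membranes. On its detected probe set it stood at 3.82, 2.64 and 3.11 on w1118 replicates 1, 2 and 3, at 4.10, 3.71 and 3.60 on the mutant arrays and at 3.48, 3.86 and 3.63 on the Cbt>69B arrays. The mutant and Cbt>69B arrays lay close together, and w1118 replicate 2 was the lowest of all 9. The mutant minus w1118 difference was 0.61 (95% interval -0.06 to 1.28, limma adjusted p = 0.595), and that of Cbt>69B minus w1118 was 0.46 (-0.21 to 1.13, adjusted p = 0.291). Cbt>69B and mutant differed by -0.15 (-0.82 to 0.52, adjusted p = 0.787). Of the 5 genes detected on all arrays, Pxn was the only one with a higher mean in both of these groups than in w1118, and the groups overlapped in every comparison.

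Ppn encodes papilin, a large proteoglycan-like glycoprotein of the extracellular matrix. Its level was 8.64, 6.18 and 7.73 on w1118 replicates 1, 2 and 3, 7.19, 6.77 and 6.59 on the mutant arrays and 6.30, 6.78 and 6.65 on the Cbt>69B arrays. The control arrays thus held both the highest and the lowest value, with the other groups between them. The mean difference was -0.67 (95% interval -1.92 to 0.59, limma adjusted p = 0.800) for mutant minus w1118 and -0.94 (-2.19 to 0.32, adjusted p = 0.256) for Cbt>69B minus w1118. Between Cbt>69B and mutant it was -0.27 (-1.53 to 0.99, adjusted p = 0.796).

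Glt encodes glutactin, an acidic basement membrane protein with a cholinesterase-like part. It had the widest range of the members, 4.42 log2 units. Its level was 4.69 on w1118 replicate 1 and 4.48 on replicate 3, whereas replicate 2 read 0.38, below background. On the mutant arrays it stood at 1.42, 1.25 and 1.33, above background on each. On the Cbt>69B arrays it stood at 0.93, 0.27 and 0.89, of which only replicate 3 exceeded its background. The mean difference from w1118 was -1.85 in the mutant (95% interval -4.19 to 0.50, limma adjusted p = 0.651), with overlap through w1118 replicate 2. In Cbt>69B the mean lay below background, and with background as its floor the w1118 mean was at least 4.25-fold higher, again with overlap. This bound concerns the measured means, not their spread. The limma test of the deposited values, without that floor, gave an adjusted p of 0.142. All Cbt>69B arrays lay below all mutant arrays, and the mutant mean was at least 1.18-fold higher in the same sense (limma adjusted p = 0.738 without the floor).

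Hml stayed near background. It read 0.87, 1.29 and 0.85 on w1118 replicates 1, 2 and 3, 0.73, 0.80 and 0.63 on the mutant arrays and 1.08, 1.06 and 0.87 on the Cbt>69B arrays. All mutant arrays lay below all w1118 arrays, but the difference was -0.28 (95% interval -0.62 to 0.06, limma adjusted p = 0.626) and only 1 of the 3 mutant arrays, replicate 2, exceeded its background. The Cbt>69B mean lay below background, so it gives no direction against w1118, where the values overlapped.

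The engulfment receptor gene crq encodes Croquemort, a CD36 family protein with which macrophages take up dying cells. Its level was 5.05, 5.68 and 5.42 on w1118 replicates 1, 2 and 3. It was 4.54, 4.66 and 4.87 on the mutant arrays and 5.02, 4.61 and 4.92 on the Cbt>69B arrays. All arrays of both groups lay below all w1118 arrays, each control array included. For Cbt>69B the gap was narrow, between its highest value of 5.02 and the lowest w1118 value of 5.05. The mutant mean was 1.61-fold lower, a log2 difference of -0.69 (95% interval -1.14 to -0.24), which did not pass (limma adjusted p = 0.371). In Cbt>69B it was 1.45-fold lower (-0.53, interval -0.98 to -0.09, adjusted p = 0.119). Between Cbt>69B and mutant the values overlapped (0.16, -0.29 to 0.61, adjusted p = 0.656).

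drpr encodes Draper, the engulfment receptor related to CED-1 of worms. It stood at 7.18 and 6.82 on w1118 replicates 1 and 3 and at 4.97 on replicate 2, the lowest of all 9 arrays. The mutant arrays read 5.15, 6.13 and 5.46 and the Cbt>69B arrays 5.35, 5.17 and 5.41. As for Ppn, both other groups lay between the control arrays. The difference was -0.74 (95% interval -1.98 to 0.50, limma adjusted p = 0.768) for mutant minus w1118 and -1.01 (-2.25 to 0.23, adjusted p = 0.226) for Cbt>69B minus w1118. Cbt>69B minus mutant was -0.27 (-1.51 to 0.97, adjusted p = 0.794).

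Pvr encodes the receptor tyrosine kinase of the PDGF and VEGF receptor family, which guides hemocytes and keeps them alive. It read 5.48, 4.73 and 5.01 on w1118 replicates 1, 2 and 3, 4.60, 5.09 and 4.68 on the mutant arrays and 4.45, 4.54 and 4.80 on the Cbt>69B arrays. Its range over the 9 arrays, 1.03 log2 units, was the narrowest among the 5 genes detected on every array. The difference was -0.29 (95% interval -0.80 to 0.23, limma adjusted p = 0.788) in the mutant and -0.48 (-0.99 to 0.03, adjusted p = 0.177) in Cbt>69B. lz encodes Lozenge, the Runx factor of crystal cells, and read 0.20 to 0.58 on the 9 arrays, with exactly the same value on 3 of them. Such repeated values are common at the low end of the table, where 3372 of 18769 probe sets carry the same value on at least 2 arrays, at a median level of 0.52.

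**Figure D2:**
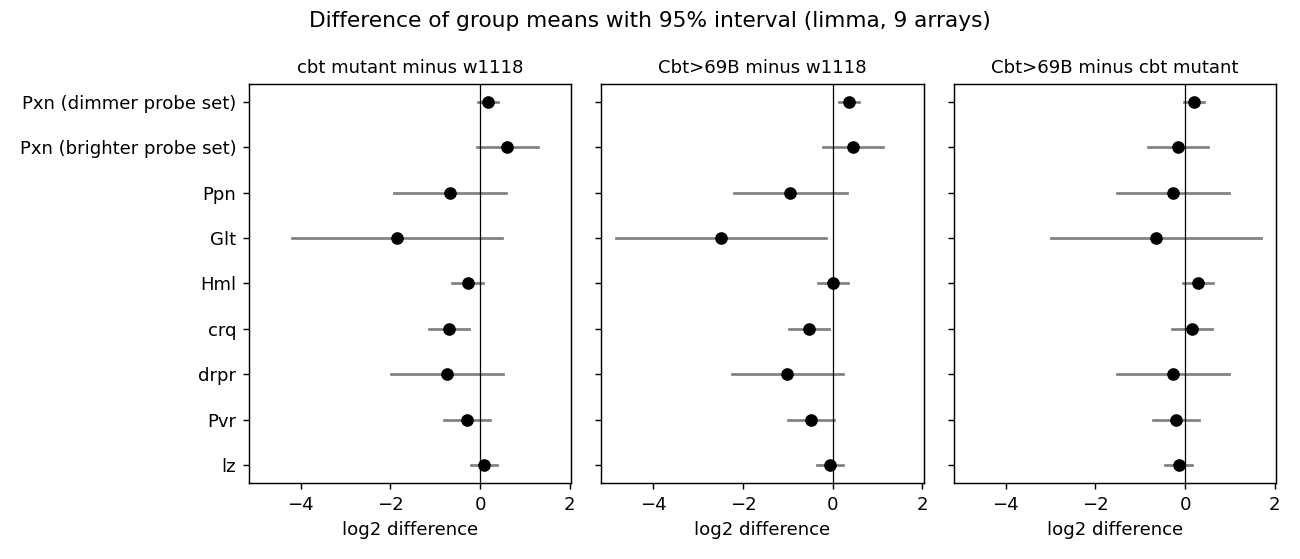
Difference of group means (x axis, log2 units; point) with its 95% interval from limma (line) for each member probe set (y axis) in the 3 comparisons. The widest intervals are those of Glt, Ppn and drpr, and the interval of crq lies below 0 in both comparisons with w1118 although neither passed after adjustment.

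The arrays of mutant and w1118 stood fully apart for 3 of the 9 probe sets (9.79% of all probe sets). These were crq, lower, with Hml, too near background in the mutant to give a direction, and the undetected Pxn probe set. For Cbt>69B and w1118 they were 2 of 9 (29.0%), crq, lower, and the undetected Pxn probe set. Between Cbt>69B and mutant they were 3 of 9 (38.6%), namely Glt, lower in Cbt>69B, with Hml and the undetected Pxn probe set, which lie too near or below background to give a direction. Of the 5 genes detected on all arrays, crq was thus the only one that stood apart in both comparisons with w1118.

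The split of the controls touched the members unequally. w1118 replicate 2 minus the mean of replicates 1 and 3 was -4.20 for Glt, and 57 of 18769 probe sets (0.304%) had a gap of that size or more. It was -2.03 for drpr and -2.01 for Ppn, which 8.86% and 9.13% of probe sets reached. For Pxn it was -0.83, for Pvr -0.52 and for crq 0.45, sizes that 29.8%, 41.5% and 46.0% of probe sets reached. Thus Glt, drpr and Ppn were lower on replicate 2, by more than any difference between the mutant and Cbt>69B means of these genes, while crq was slightly higher there.

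Without w1118 replicate 2, 3 member probe sets were called between mutant and w1118, all lower, beside 12.1% of all probe sets called lower. These were Glt at -3.25 (limma adjusted p = 0.000204), drpr at -1.42 (adjusted p = 0.00795) and Ppn at -1.34 (adjusted p = 0.0151). In Cbt>69B minus w1118, 5 were called, beside 40.6% of all probe sets. Glt at -3.89 (adjusted p = 5.07e-05), drpr at -1.69, Ppn at -1.61 and Pvr at -0.65 (adjusted p = 0.0403) were lower, and the undetected Pxn probe set was higher. The controls left are those whose spike-in values also differ from all other arrays, so genotype and that difference cannot be told apart. With w1118 replicate 2 as the only control, 0 of the 9 were called in either comparison by limma, beside 0.202% of all probe sets in each. A single control array has no spread of its own, so the error is taken from the other groups and this 0 says little. At an unadjusted p under 0.05 there were 4 and 3 members, beside 15.5% and 8.38% of all probe sets. There the mutant minus w1118 differences turned to 0.95 for Glt, 0.67 for Ppn and 0.61 for drpr, and those of Cbt>69B to 0.32, 0.40 and 0.34. crq kept its sign with either set of controls, at -0.54 and -0.99 in the mutant and -0.38 and -0.83 in Cbt>69B, and so did Pxn (0.34 and 1.16, then 0.19 and 1.01). With other processing settings the Cbt>69B minus w1118 difference of crq shrank to as little as -0.05.

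**Figure D3:**
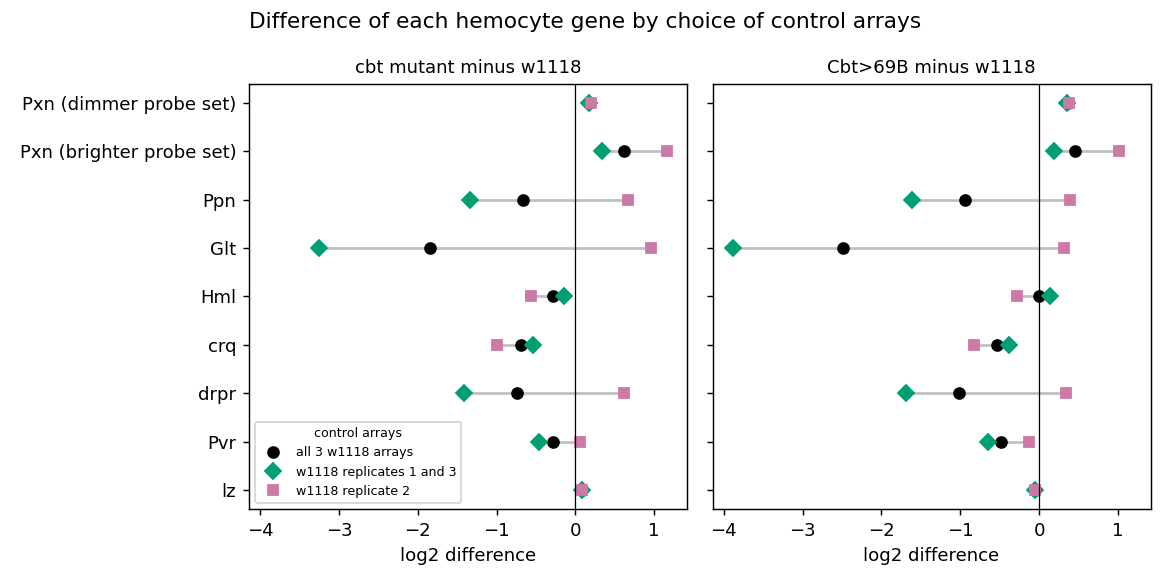
Log2 difference from w1118 (x axis) of each member probe set (y axis) with all 3 control arrays (circle), with w1118 replicates 1 and 3 (diamond) and with w1118 replicate 2 alone (square). Ppn, Glt and drpr change sign with the choice of controls in both panels, while crq stays below 0 and the detected Pxn probe set above 0.

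The comparison of Cbt>69B with the mutant takes w1118 only for the spread. Leaving out either set of controls, 0 of the 9 member probe sets were called there by limma, beside 16.0% of all probe sets without w1118 replicate 2 and 13.8% without replicates 1 and 3, and 2 had an unadjusted p under 0.05 (32.1% and 30.0% of all probe sets). Over the 8 genes (brightest probe set each) the mean level was 3.31 to 3.47 in Cbt>69B and 3.45 to 3.62 in the mutant. It was 4.52 and 4.23 for w1118 replicates 1 and 3 but 3.28 for replicate 2.

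For each member the genes closest in pattern were sought among detected probe sets with 1 symbol, as those with the smallest mean absolute difference between levels centred on their own means over the 9 arrays. For Glt these were sls, the gene of the giant muscle protein Sallimus, at 0.22 log2 units, and hoka at 0.24. The sls probe set stood at 5.21 and 4.72 on w1118 replicates 1 and 3, at 1.19 on replicate 2, at 1.77, 2.03 and 1.73 in the mutant and at 1.02 to 1.32 in Cbt>69B. The level of hoka, which encodes a septate junction protein, was 4.79, 1.12 and 4.02 on w1118 replicates 1, 2 and 3, and 0.73 to 1.84 on the other arrays. Closest to Ppn were CG15506 (0.11) and tpr (0.13), to drpr Nak and bab2 (0.11 each), and to Pvr Syb (0.08) and CG8516 (0.09). For crq they were eIF4EHP (0.12) and Cyp18a1 (0.15), and for Pxn sturkopf (0.14) and CG8159 (0.15). Each of the matches to crq rested on 1 probe set, and another probe set of the same gene differed. That of eIF4EHP read 4.61, 1.97 and 4.38 on w1118 replicates 1, 2 and 3, and that of Cyp18a1 4.48, 1.13 and 3.94. No member was closest to another member. For Hml (H15 and CG3280) and lz (grp and byn) the likeness is one of flat, low values.

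**Figure D4:**
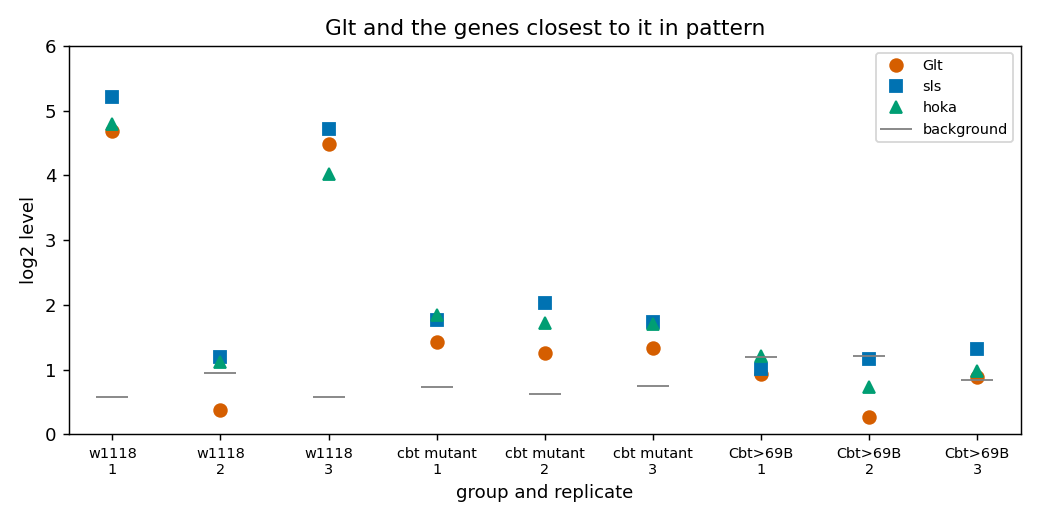
Log2 level (y axis) of Glt, sls and hoka on each of the 9 arrays (x axis), with the background of each array as a grey line. All 3 genes exceed 4 on w1118 replicates 1 and 3 and lie at or below 2.03 on the other 7 arrays.

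Genes that act around the members were taken from lists chosen with earlier results of these data known. Of 9 genes for hemocyte fate and transcription factors, limma called 0 in each comparison (3, 6 and 0 at an unadjusted p under 0.05 for mutant minus w1118, Cbt>69B minus w1118 and Cbt>69B minus mutant, where 9.0%, 31.9% and 18.9% of all probe sets stand at that threshold, as for the lists that follow), with median differences of -0.79 in the mutant and -1.37 in Cbt>69B against w1118. srp, the gene of Serpent, read 7.02, 5.68 and 7.45 on w1118 replicates 1, 2 and 3, and 5.17 to 5.70 on the mutant arrays (-1.21, SE 0.41, adjusted p = 0.456). On the Cbt>69B arrays it read 5.44 to 5.59, so w1118 replicate 2 lay among the arrays of the other groups and below its own. The mutant also had the zinc finger gene peb at -1.39 (adjusted p = 0.463). In Cbt>69B, klu, a zinc finger gene of crystal cell and neural precursors, was at -2.22 (adjusted p = 0.0893) and ush, the gene of the Serpent partner U-shaped, at -1.43 (adjusted p = 0.0963). The plasmatocyte factor gene gcm was at -0.75 in Cbt>69B against the mutant (adjusted p = 0.361). Without w1118 replicate 2, 6 of the 9 were called lower and 1 higher in the mutant, beside 12.1% and 9.11% of all probe sets, and 6 lower and 2 higher in Cbt>69B, beside 21.0% and 19.6%. Without that array peb in the mutant stood at -1.98 (adjusted p = 0.00190). Against w1118 replicate 2 alone, peb was at -0.20, the srp difference was -0.17, that of klu -0.91 and that of ush -0.64. The median over the 9 genes was then -0.03 in the mutant and -0.24 in Cbt>69B. Muscle and segmentation markers, given below, also had negative medians against all 3 controls.

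Of 11 measured genes among Pvr ligands and migration genes, limma called 0 (1, 6 and 5 at an unadjusted p under 0.05 in the same order of comparisons). Pvf2, a ligand of Pvr, read 1.35, 1.33 and 0.77 on w1118 replicates 1, 2 and 3, 1.34, 1.21 and 0.96 on the mutant arrays and 2.31, 2.59 and 1.94 on the Cbt>69B arrays. Every Cbt>69B array lay above the other 6. The difference was 1.14 from w1118 (95% interval 0.62 to 1.65, limma adjusted p = 0.0854) and 1.11 from the mutant (0.59 to 1.63, adjusted p = 0.102). Against the mutant it was called when w1118 replicate 2 was left out (adjusted p = 0.0175) and when replicates 1 and 3 were (0.0184). Another ligand gene, Pvf1, was at 0.89 against the mutant (adjusted p = 0.191), and Ced-12, of the engulfment and migration machinery upstream of Rac, at -2.72 against w1118 (adjusted p = 0.0969). Against replicates 1 and 3 Ced-12 stood at -3.57 (adjusted p = 0.000905) and against replicate 2 at -1.02, while the Pvf2 difference from w1118 was 1.23 (adjusted p = 0.00515) and 0.95. In the mutant sn, which encodes the actin bundler fascin, stood at -0.78 (adjusted p = 0.541) and mys, the gene of a beta integrin, at -0.79 (adjusted p = 0.648). Against replicates 1 and 3 these were -1.17 (adjusted p = 0.00484) and -1.34 (adjusted p = 0.00456), and against replicate 2 they were -0.01 and 0.29.

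Of 17 measured engulfment and scavenger receptor genes, limma called 0 (2, 7 and 3 at an unadjusted p under 0.05), and the medians were -0.06 in the mutant and -0.13 in Cbt>69B. Sr-CI, a scavenger receptor of plasmatocytes, read 4.25, 3.68 and 3.95 on w1118 replicates 1, 2 and 3 and 1.78, 2.51 and 1.77 on the mutant arrays. All mutant arrays lay below all controls, replicate 2 included. The difference was -1.94 (95% interval -2.84 to -1.04, limma adjusted p = 0.201), and -1.66 against w1118 replicate 2 alone (adjusted p = 0.248). On the Cbt>69B arrays Sr-CI read 1.80, 2.78 and 3.32. Its relative Sr-CII read 3.60, 3.75 and 5.50 in w1118, 3.52, 4.46 and 5.28 in the mutant and 2.48, 1.70 and 1.62 in Cbt>69B. Here the Cbt>69B arrays lay below all others, at -2.49 from the mutant (-3.88 to -1.09, adjusted p = 0.127, and 0.0283 without w1118 replicate 2). pall, an F-box gene of phagocytosis, was at -1.62 from w1118 in Cbt>69B (adjusted p = 0.0963), with -1.84 (adjusted p = 0.0160) against replicates 1 and 3 and -1.18 against replicate 2. The phosphatase gene csw was at -1.12 in the mutant (adjusted p = 0.536), and at 0.11 against w1118 replicate 2 alone.

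Of 13 measured matrix genes, which hemocytes share with the fat body, limma called 0 (0, 3 and 0 at an unadjusted p under 0.05), with medians of -0.24 in the mutant and -0.97 in Cbt>69B. trol, the perlecan gene, read 4.42, 1.01 and 4.27 on w1118 replicates 1, 2 and 3 on the probe set with the smallest p of those it has, and 1.02 to 1.11 in the mutant (-2.16, adjusted p = 0.496). Against replicate 2 alone it was at 0.07. The brightest trol probe set, which stands for the gene in the list median, showed no such drop. It averaged 1.78 in w1118, 1.69 in the mutant and 1.94 in Cbt>69B. The smallest p in both Cbt>69B comparisons was that of a probe set of Mmp2, a matrix metalloproteinase gene, at 0.63 against w1118 (adjusted p = 0.0792) and 0.53 against the mutant (adjusted p = 0.110), but its mean lay below background in all 3 groups. Another, dimmer trol probe set was at -1.45 in Cbt>69B against w1118 (adjusted p = 0.0969). The collagen IV gene Col4a1 stood at -1.55 in Cbt>69B against the mutant (adjusted p = 0.334). Of 9 crystal cell and melanisation genes, SPE passed, a protease of the Toll and melanisation cascades. It rose from 1.22, 1.05 and 0.78 in w1118 to 3.80, 2.81 and 3.29 in the mutant (2.28, SE 0.24, limma adjusted p = 0.017) and to 2.56, 2.73 and 2.67 in Cbt>69B (1.64, SE 0.24, adjusted p = 0.0455). The mutant call was lost without mutant replicate 3, w1118 replicate 3, or Cbt>69B replicate 1, 2 or 3 (adjusted p 0.059 to 0.116). The Cbt>69B call was lost in each of these settings and without w1118 replicate 1 (0.0959 to 0.199). With only the compared groups fitted, the adjusted p was 0.215 and 0.0502. The size moved little, from 2.03 to 2.53 in the mutant and from 1.52 to 1.74 in Cbt>69B with single arrays left out. Against w1118 replicate 2 alone it was 2.25 (adjusted p = 0.0791) and 1.61 (adjusted p = 0.254). PPO1, a prophenoloxidase gene of crystal cells, stood at 0.80 in Cbt>69B against the mutant (adjusted p = 0.261).

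Lists of markers of other tissues were read as well. Mean marker levels of muscle, fat body and early segmentation were lower on w1118 replicate 2 than on replicates 1 and 3. The mean of the amnioserosa markers on replicate 2 lay between the others. Single markers of the fat body, segmentation and amnioserosa lists went both ways. The mean level of 8 muscle markers was 6.01 and 5.58 in w1118 replicates 1 and 3, 2.00 in replicate 2, 3.03 to 4.38 in the mutant and 1.94 to 1.97 in Cbt>69B, with all 8 above background on every w1118 and mutant array. The 7 measured early segmentation genes averaged 2.87 to 3.82 in w1118, 2.39 to 3.15 in the mutant and 2.54 to 2.71 in Cbt>69B. The 10 amnioserosa markers averaged 4.40, 4.58 and 4.61 on w1118 replicates 1, 2 and 3, 4.04 to 4.81 in the mutant and 4.19 to 4.37 in Cbt>69B. Of 5 measured fat body markers 2 lay above background, and their mean over the 5 was 2.50 to 3.24 in w1118, 2.44 to 2.65 in the mutant and 2.55 to 2.60 in Cbt>69B. Median differences from w1118, mutant then Cbt>69B, were -1.01 and -2.50 for muscle and -0.59 and -0.69 for segmentation. They were 0.0088 and -0.13 for the amnioserosa and -0.00085 and 0.0084 for the fat body. Limma called 0 genes of these lists in the 3 comparisons. At an unadjusted p under 0.05 and in the same order of comparisons, against the 9.0%, 31.9% and 18.9% over all probe sets, there were 0, 6 and 1 muscle, 3, 4 and 0 segmentation, 2, 5 and 4 amnioserosa and 0, 1 and 0 fat body genes. Without w1118 replicate 2, 6 muscle, 4 segmentation, 2 amnioserosa and 2 fat body genes were called lower in the mutant. In Cbt>69B these counts were 7, 5, 4 and 2. Of all probe sets 12.1% and 21.0% were called lower there. Called higher were 2 and 4 amnioserosa genes, beside 9.11% and 19.6% of all probe sets. The part of these tissues in the levels of Glt, Ppn, drpr and trol was not tested.

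**Figure D5:**
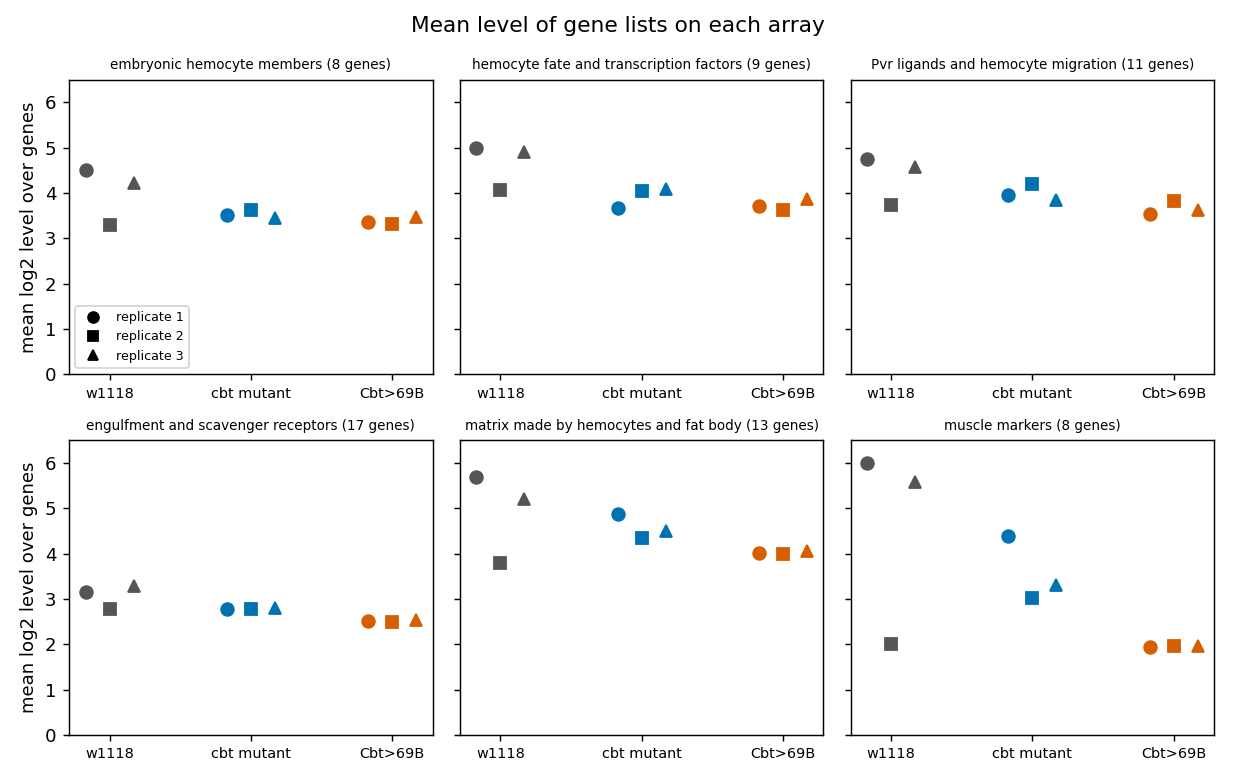
Mean log2 level over the genes of a list (y axis; brightest probe set per gene) on each array by group (x axis), with the symbol giving the replicate. The 6 panels show the members, 4 lists of hemocyte-related genes (fate, migration, engulfment, matrix) and the muscle markers. In each of them w1118 replicate 2 lies below w1118 replicates 1 and 3, by the most for the muscle markers. Not drawn are the lists of fat body and early segmentation, also lower on replicate 2, and those of crystal cells and the amnioserosa. The crystal cell genes averaged 1.94, 1.68 and 1.61 on w1118 replicates 1, 2 and 3. The amnioserosa markers averaged 4.40, 4.58 and 4.61.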

How the data were processed

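Each array (Affymetrix Drosophila Genome 2.0) took total RNA of 1 sample of whole embryos. The authors deposited 1 log2 level per probe set and array, made with RMA, affy and limma of unstated version, per the submitters' processing notes. Array medians were 0.85 to 1.06, low for log2 intensities, and no source used here mentions a rescaling, so the log2 base is taken as deposited. Filters, genome build and chip definition file: not given in the sources used here. Of 18952 probe sets, 183 Affymetrix controls were left out of the tests. The platform annotation names 13647 probe sets by 1 symbol and 402 by several and leaves 4720 unnamed, and 13544 were updated by gene ID through the RefSeq table of Release 6 plus ISO1 MT.

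A limma 3.58.1 model (R 4.3.3) of the 3 group means was fitted over the 9 arrays together, with Benjamini-Hochberg adjustment over 18769 probe sets at 0.05. Intervals are 95% for single differences. A group whose mean is at or below background has only a bound, taken against the higher of its own value and the background of each array. The members and the 9 gene lists were chosen with earlier results of these data known. Named genes are the members, cbt, and from each list the called genes and otherwise the 2 probe sets with the smallest p in each comparison, except that the marker lists of other tissues are given by counts and mean levels only. Genes close in pattern are the nearest 2 per member. On simulated data with 18769 probe sets and 50 changes per size, the mutant versus w1118 fit recovered 44% of changes of 1 log2 unit, 80% of 2, 92% of 3 and 94% of 4, with 10 false calls. These shares hold for the simulated spread only. In the data, mutant minus w1118 differences of -2.46 for cbt and -1.85 for Glt were not called, while that of 2.28 for SPE was. The planned motif search in promoters was not run.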

Additional observations from a re-analysis of the deposited data

How the results depend on the processing

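The 0 calls among the member probe sets stayed 0 in all 3 comparisons with medians set equal, cyclic loess, a filter at background, only the compared groups, an intensity trend, robust eBayes, the replicate block and the gene length trend removed. Leaving out each array gave 0 to 3 called members for mutant minus w1118 and 0 to 5 for Cbt>69B minus w1118. More than 0 came only without w1118 replicate 2, where 3987 and 7625 of all 18769 probe sets were called. Array weights gave that array a weight of 0.119 and called 4 members in each of these comparisons. With these weights 5329 and 8846 of all 18769 probe sets were called, so such calls were common beyond the members. In the mutant the 4 were crq, drpr, Glt and Ppn, all lower. In Cbt>69B they were drpr, Glt and Ppn, lower, and the undetected Pxn probe set, higher. Over the 19 alternative settings the crq difference from w1118 kept its sign. It ranged from -0.99 to -0.50 in the mutant and from -0.83 to -0.05 in Cbt>69B. Against w1118 replicate 2 alone, the mutant differences turned to 0.95 (Glt), 0.67 (Ppn), 0.61 (drpr) and 0.0585 (Pvr), those of the listed genes mys, csw and trol to 0.29, 0.11 and 0.0659, and the Cbt>69B differences to 0.32 (Glt), 0.40 (Ppn), 0.34 (drpr) and -0.28 (Hml). The Cbt>69B minus w1118 difference of Hml, 0.00 in all arrays, was -0.0869 with equal medians, -0.0567 with cyclic loess and -0.0757 to 0.14 with single arrays left out, and that of lz, -0.06, was 0.00149 with array weights, 0.39 with the length trend removed and -0.18 to 0.00806 with single arrays left out. For Cbt>69B minus mutant, cyclic loess gave 0.22 for Pxn and 0.0432 for Pvr, removing the length trend gave 0.0202 for lz, and drpr ranged from -0.48 to 0.00285 with single arrays left out. Removing the length trend put Hml at 0.00428 in the mutant. The cause of these turns was not tested.

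Over all probe sets the counts of 25, 70 and 48 calls and 73 in the F test became 3, 18 and 2595 with only the compared groups, 5329, 8846, 3802 and 8658 with array weights, and 38, 38, 2595 and 1239 against w1118 replicate 2 alone. With the replicate block they were 11, 17, 30 and 23, and the SPE calls were lost (adjusted p = 0.112 and 0.124), as was the Cbt>69B call of SPE with an intensity trend or robust eBayes (0.0528 each). Deviations of arrays with the same number correlated at -0.37 to 0.26. Between Cbt>69B and mutant these values were 0.15, 0.26 and -0.09 for replicates 1, 2 and 3. With 3 arrays per group and w1118 replicate 2 apart from its group, they cannot decide whether the number pairs the arrays. The filter at background gave 73 for Cbt>69B minus mutant. With single arrays left out the ranges were 12 (without w1118 replicate 3) to 3987, 11 (without Cbt>69B replicate 3) to 7625, 24 (without mutant replicate 2) to 2999 and 27 (without Cbt>69B replicate 3) to 6978, each highest without w1118 replicate 2. The filter removed lz and the undetected Pxn probe set, which have no value there. For these 2, and for Hml, signal over background sets the limit.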
